A study of Oryzias latipes with 6 samples.

Results

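A group of 74 genes stood at least 3-fold higher in every pool of SEDL knockout medaka embryos than in any pool of wild type embryos. They were taken from a table of 20459 Ensembl gene IDs of medaka (Oryzias latipes) by level alone. Counts were expressed as CPM, the counts of a gene per 1000000 counts in its library. A gene was included when its mean knockout level was at least 2 CPM and its lowest knockout level was at least 3 times its highest wild type level. Of the 16046 genes with a mean knockout level of at least 2 CPM, 0.461% met both conditions. The genes were thus selected on their knockout and wild type levels in all 6 libraries. The levels, folds, calls and adjusted p of that difference given below therefore describe these genes and are no support for it.

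Whole Cab strain embryos had been collected at Iwamatsu stage 40, which lies around hatching. The wild type group held 3 pools and the group labelled as SEDL knockout another 3, all untreated and of undetermined sex. The titles call the pools of each genotype biological replicates. The sources used here do not give the knockout allele, the number of embryos in a pool or their clutches. Biological and technical spread between pools therefore cannot be told apart. Each pool gave 1 library of 18499107 to 23393540 counts.

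SEDL is an older symbol of TRAPPC2, whose product sedlin belongs to the TRAPP complexes. These complexes act in membrane traffic between the endoplasmic reticulum and the Golgi. In humans, loss of sedlin causes spondyloepiphyseal dysplasia tarda, a disorder of cartilage and bone growth, and sedlin has been linked to the export of procollagen from the endoplasmic reticulum. IDs are not paired with symbols in the table, and 0 IDs matched the RefSeq gene table, so no function is given for any of the 74 genes. For the same reason the level of SEDL itself and of tissue markers could not be read, and the labels were not checked against them. In whole embryos, more cells of a type and more RNA per cell cannot be told apart.

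Most of the 74 genes were low but present in wild type embryos. In wild type, 2 genes had 3 counts or fewer over the 3 libraries, 13 more averaged below 1 CPM, 17 averaged 1 to 4 CPM, 25 averaged 4 to 16 CPM and 17 averaged 16 CPM or more. The median of the mean wild type levels was 6.29 CPM and the highest was 225 CPM. Ranked by mean level over all 20459 genes, 0 of the 74 were in the top 500 of wild type and 2 were in its top 1000. Lists this short would hold few of any 74 of those genes, so the wild type counts are no trait of the group. In the knockout, 6 were in the top 500 and 9 in the top 1000. Of the 9 genes with a fold of 20 or more, 7 averaged below 1 CPM in wild type, against 15 of all 74.

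**Figure D1:**
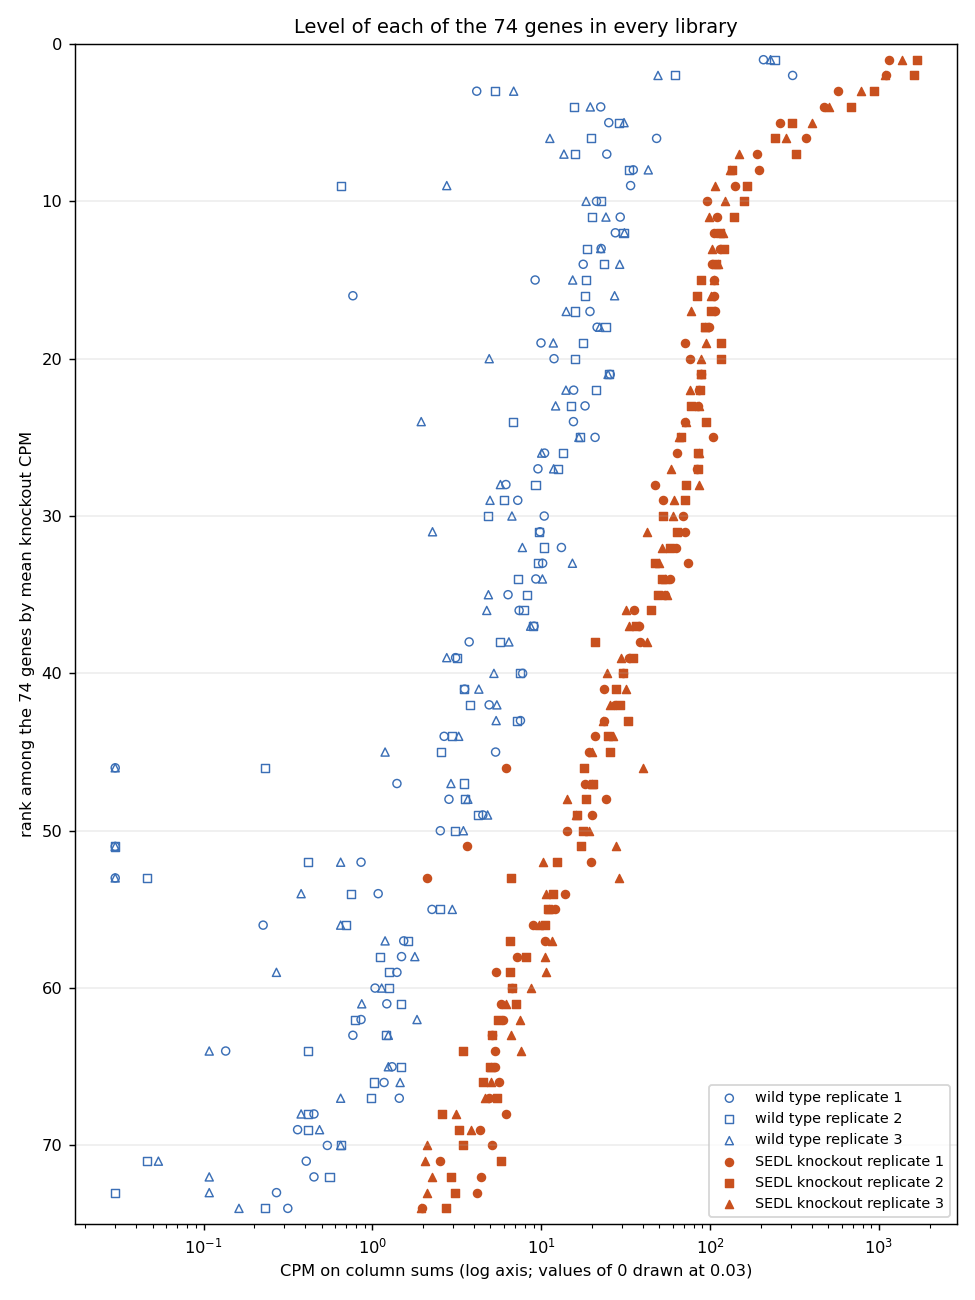
CPM of each of the 74 genes (rows, ranked by mean knockout level) in the 3 wild type libraries (open blue) and the 3 SEDL knockout libraries (filled orange), on a log axis with values of 0 drawn at 0.03. The 2 groups do not overlap in any row, which the choice of genes fixes, and the spread inside a group is wide in a few rows such as ranks 9, 16, 46, 51 and 53.

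As a group the 74 genes took 0.117%, 0.0910% and 0.0856% of all counts in wild type replicates 1 to 3, and 0.713%, 0.893% and 0.752% in knockout replicates 1 to 3. The group means were 0.0980% ± 0.0170 and 0.786% ± 0.0947 (SD, n = 3 each). A few genes made up much of this total. The top 2 by knockout level held 33.9% of the summed knockout CPM of the group and the top 4 held 50.7%.

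Over the 74 genes the fold, taken as mean knockout CPM over mean wild type CPM, started at 3.51 and had a median of 6.63. For rank 51, with 0 wild type counts, an assumed floor of 3 counts over the wild type group stood in for the wild type mean. A fold below 5 was found for 17 genes, 5 to 10 for 40, 10 to 20 for 8 and 20 or more for 9. Fitted with edgeR on TMM-scaled counts, the median log2 fold change of the 74 genes was 2.87, beside -0.01 over all 18011 genes tested. That fit had no term for the replicate number. In it 15.9% of all tested genes were called higher in the knockout (quasi-likelihood test of edgeR, p adjusted after Benjamini and Hochberg under 0.05). All 74 genes passed the filter on low counts and 72 were called higher, a count that follows from how they were chosen. The 2 that were not called had the widest spread between wild type pools among the 70 genes with counts in every wild type library, and are described further on as ranks 9 and 16.

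**Figure D2:**
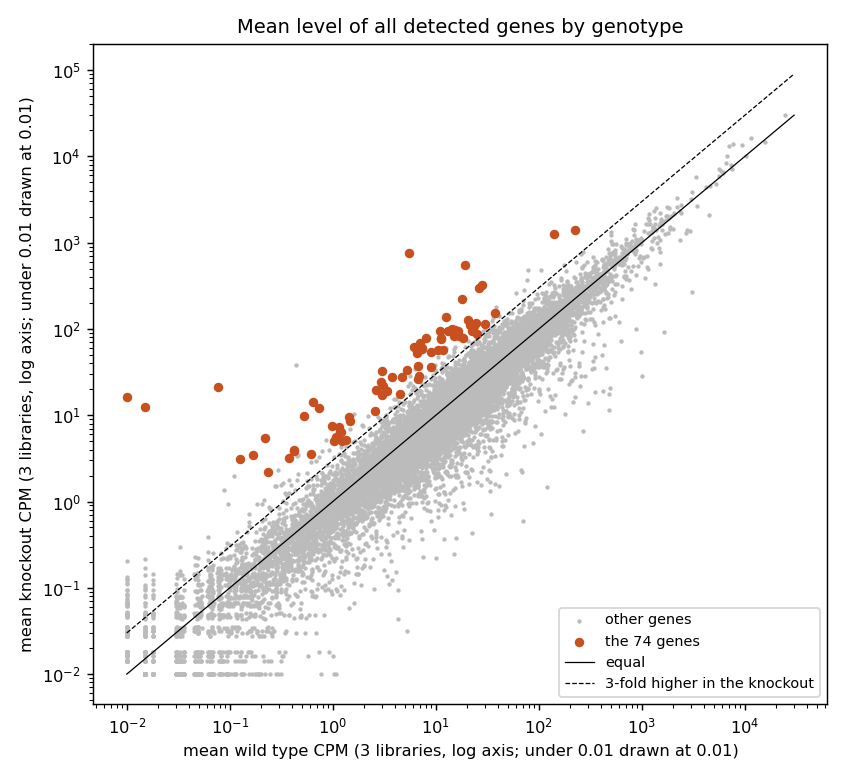
Mean knockout CPM against mean wild type CPM of every detected gene (n = 3 libraries each, log axes, values under 0.01 drawn at 0.01), with the 74 genes in orange, the line of equal level and a dashed line at 3-fold. The 74 genes lie above the dashed line from below 0.1 to 225 CPM in wild type, while genes above that line in grey failed the condition on single libraries or on level.

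Folds were largest among genes with the lowest wild type level. The median fold was 16.4 among the 13 genes below 1 CPM, 5.66 among the 17 genes at 1 to 4 CPM, 6.67 among the 25 genes at 4 to 16 CPM and 5.30 among the 17 genes at 16 CPM or more. The minimum knockout level of 2 CPM by itself requires a larger fold of the lowest genes, so this order is partly set by the selection. Precision also differed, since 10 genes had under 30 counts in the 3 wild type libraries together and 50 had at least 100. The lowest knockout library of any of the 74 genes held 37 counts.

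Genes are called below by their rank in mean knockout level, from 1 for the highest to 74 for the lowest. The highest was ENSORLG00000016133, which also had the highest wild type level of the group. It had 207, 241 and 228 CPM in wild type replicates 1 to 3 and 1142, 1687 and 1377 CPM in knockout replicates 1 to 3. Its highest wild type pool was 1.16 times the lowest, and its highest knockout pool was 1.48 times the lowest. In the order of all genes it went from place 551 in wild type to place 72 in the knockout. Its means were 225 ± 17.0 and 1402 ± 273 CPM (SD, n = 3 each), a 6.23-fold difference. On the log2 scale edgeR put the difference at 2.79 ± 0.16 (standard error).

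The second, ENSORLG00000001013, reached nearly the same knockout level from a wild type level that was not shared by the pools. Wild type replicates 1 to 3 had 308, 62.0 and 49.1 CPM and knockout replicates 1 to 3 had 1100, 1616 and 1081 CPM. Wild type replicate 1 thus stood well above the other wild type pools, and all knockout pools stood above it. The ratio of same-numbered libraries was 3.57 for number 1, 26.1 for number 2 and 22.0 for number 3. Its mean fold of 9.06 therefore depends on wild type replicate 1, and the log2 difference fitted by edgeR, 3.33, carried a standard error of 0.90. That log2 difference was 4.67 without wild type replicate 1 and 2.92 to 3.45 without any other single library. It missed the call threshold in 7 of 10 other settings, among them those 5, and blocking on the replicate number gave 3.86 (edgeR adjusted p = 0.0941).

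Ranks 3 and 4 combined a large fold with a high knockout level. Rank 3 had 4.15, 5.34 and 6.87 CPM in the wild type libraries and 569, 933 and 782 CPM in the knockout libraries. It was 139.7-fold higher in the knockout and moved from place 14377 to place 150 in the order of all genes. Rank 4 had 22.5, 15.7 and 19.5 CPM in wild type and 475, 680 and 507 CPM in the knockout, a 28.8-fold difference. Ranks 5 to 7 reached knockout means of 324, 297 and 221 CPM at folds of 11.4, 11.3 and 12.3. In all, 28 of the 74 genes had a knockout mean of at least 64 CPM.

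In other genes the wild type level was itself steady, and the ratio of same-numbered libraries was almost the same for each number. Rank 21 had 25.61, 25.03 and 24.87 CPM in the wild type libraries and 87.8, 88.8 and 88.1 CPM in the knockout. Its fold of 3.51 was the smallest of the 74. Rank 39 had 3.11, 3.16 and 2.76 CPM in wild type and 33.0, 34.7 and 29.6 CPM in the knockout, a fold of 10.8. In both genes the pools of each genotype nearly coincided. Of the 70 genes with counts in every wild type library, 26 had same-numbered ratios that differed by less than 1.5 times, 45 by less than 2 times, and 10 by 3 times or more. The median over these genes was 1.65 times.

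Across knockout pools 65 of the 74 genes differed by less than 2 times, but the group was less even than all genes with at least 2 CPM. The median ratio of the highest to the lowest knockout library was 1.36, beside 1.23 over the 16046 genes with at least 2 CPM. The ratio was below 1.5 for 48 of the 74 genes, which is 64.9% beside 85.0% of those genes. It was 1.5 to 2 for 17, 2 to 3 for 6 and 3 or more for 3. A ratio of 2 or more was found for 9 of the 74 genes, 12.2%, beside 3.16%. The rule makes its demand on the lowest knockout library, which can leave out uneven genes, and sets no limit on the highest.

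The medians lay above those of all genes in each of 3 classes of abundance. At 2 to 16 CPM in the knockout the median ratio was 1.39 for 23 of the 74 genes and 1.29 for all 7230 genes at that level. At 16 to 64 CPM it was 1.34 for 23 and 1.20 for all 6367. At 64 CPM or more it was 1.44 for 28 and 1.17 for all 2449. These ratios are descriptions of 3 libraries and were not tested.

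**Figure D3:**
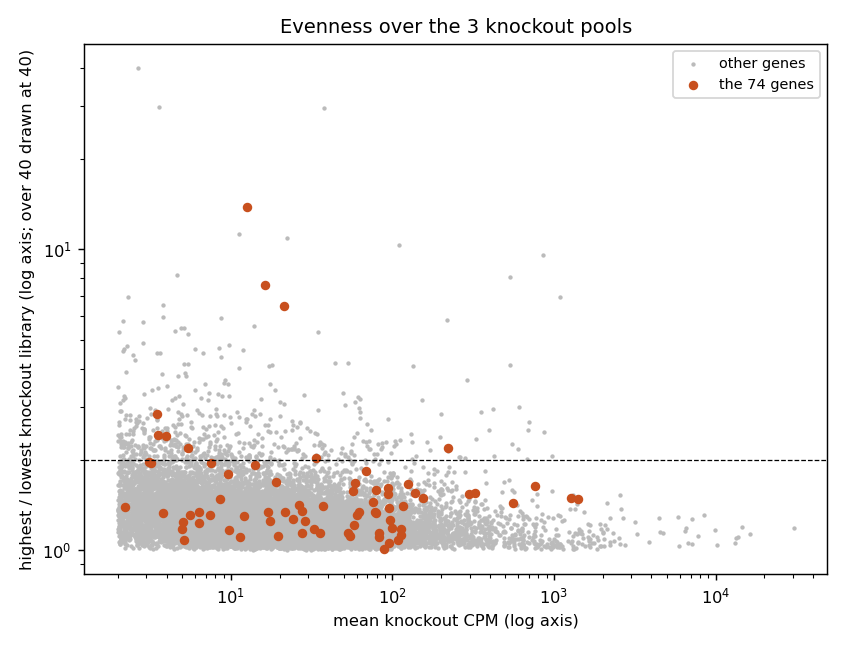
Ratio of the highest to the lowest knockout library against mean knockout CPM (log axes, ratios over 40 drawn at 40) for genes with at least 2 CPM, with the 74 genes in orange and a dashed line at 2. Of the 74 genes, 65 lie below the line, and 3 with ratios of 6.49, 7.62 and 13.8 stand apart from the rest.

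No knockout pool was the high one throughout. Knockout replicate 1 was the highest for 25 of the 74 genes, replicate 2 for 27 and replicate 3 for 22. Over all genes with at least 2 CPM, replicate 3 was the highest for 46.8%, against 29.7% of the 74. Replicate 2 was the highest for 25.05% of all and 36.5% of the 74. These shares depend on scaling by column sums and were not recounted with TMM factors, which were 0.941, 0.922 and 0.985 for knockout replicates 1 to 3. On column sums the median of all these genes stood at 0.992, 0.970 and 1.03 times the knockout mean in replicates 1 to 3.

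The 3 most uneven genes were also those with the least wild type signal and the largest folds. Rank 53 had 0, 1 and 0 counts in the wild type libraries and 49, 136 and 550 counts in the knockout libraries. Rank 51 had 0 counts in all 3 wild type libraries and 85, 353 and 525 in the knockout libraries. Rank 46 had 0, 5 and 0 counts in wild type against 144, 371 and 758 in the knockout. In each, knockout replicate 1 was lowest and replicate 3 highest, and the highest pool held 13.8, 7.62 and 6.49 times the CPM of the lowest for ranks 53, 51 and 46.

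Folds of these 3 genes carry wide counting error. From summed counts, rank 53 was 726 times higher in the knockout with an exact 95% interval of 130 to 28707, and rank 46 was 251 times higher with an interval of 107 to 776. Both intervals cover counting error only. For rank 51 the mean knockout level was 334.7 times an assumed floor of 3 counts over the wild type group, which is not a lower bound. The lower limit of its exact 95% interval on summed counts was 257. These genes did not keep their edgeR call in every setting. Rank 53 lost it in 4 of 10 other settings, which were the removal of each wild type replicate and of knockout replicate 2. Rank 51 lost it in 5, which were the fit with no filter and the removal of wild type replicates 2 and 3 and knockout replicates 2 and 3. Rank 46 lost it without wild type replicate 2. An order of replicate 1 below 2 below 3 was found for 14 of the 74 genes, 18.9%, beside 19.2% of all genes with at least 2 CPM. Over the 91 genes of at least 2 CPM whose knockout pools differed 3-fold or more, 10 had that order, these 3 among them.

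Other genes of low wild type level were less extreme. Rank 52 had 19, 9 and 12 counts in wild type against 460, 255 and 194 in the knockout, a 22.0-fold difference with every pool of the knockout far above every wild type pool. Rank 64 had 3, 9 and 2 counts in wild type against 125, 71 and 143 in the knockout, a 24.7-fold difference. Rank 73 had 6, 0 and 2 counts against 97, 64 and 40, and rank 71 had 9, 1 and 1 counts against 59, 120 and 39. With wild type counts this few, their folds of 24.7 and 20.5 are imprecise, with exact 95% counting intervals of 12.4 to 58.3 and 10.7 to 39.8 on summed counts.

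The wild type pools themselves disagreed for a set of these genes. Of the 61 genes whose highest wild type library had at least 1 CPM, 9 differed 3-fold or more between wild type pools, 14.8%. Over all 16024 such genes with at least 2 CPM in the knockout it was 124, or 0.774%. Wild type replicate 1 was the highest pool for 7 of the 9 genes and replicate 3 the lowest for 7 of the 9. Among the 124, replicate 1 was the highest for 69.

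Rank 9 was the clearest case. It had 33.8, 0.650 and 2.76 CPM in wild type replicates 1 to 3 and 141, 165 and 107 CPM in the knockout replicates. Replicate 1 was 52.0 times replicate 2 while the knockout pools were within 1.55 times of each other. Rank 24 had 15.5, 6.78 and 1.95 CPM in wild type against 71.3, 94.8 and 72.0 CPM. It lost its edgeR call in 5 of 10 other settings, which were the removal of wild type replicate 2 or of any knockout replicate and the replicate block (adjusted p = 0.0593). Rank 6 had 48.2, 19.8 and 11.2 CPM against 369.5, 241 and 282 CPM. In ranks 24 and 6, wild type replicate 1 was highest and replicate 3 lowest, while the knockout pools lay closer together.

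Rank 16 showed the opposite pool. Wild type replicate 1 had 0.767 CPM while replicates 2 and 3 had 18.2 and 27.2 CPM, and the knockout libraries had 105, 83.4 and 102 CPM. A high replicate 1 was thus not general, and over the 74 genes its median was 1.03 times the mean of the other 2 wild type libraries. On the log2 scale edgeR put rank 9 at 3.62 ± 1.44 and rank 16 at 2.82 ± 1.08 (standard errors). These were the 2 genes without a call in the edgeR fit of all 6 libraries with no replicate term. Both were called without wild type replicate 1, at 6.54 for rank 9 and 2.25 for rank 16. DESeq2 called all 74 genes higher, beside 3119 of all 18011 genes tested. Each of the 2 lacked a call in the remaining 8 of 10 other settings.

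**Figure D4:**
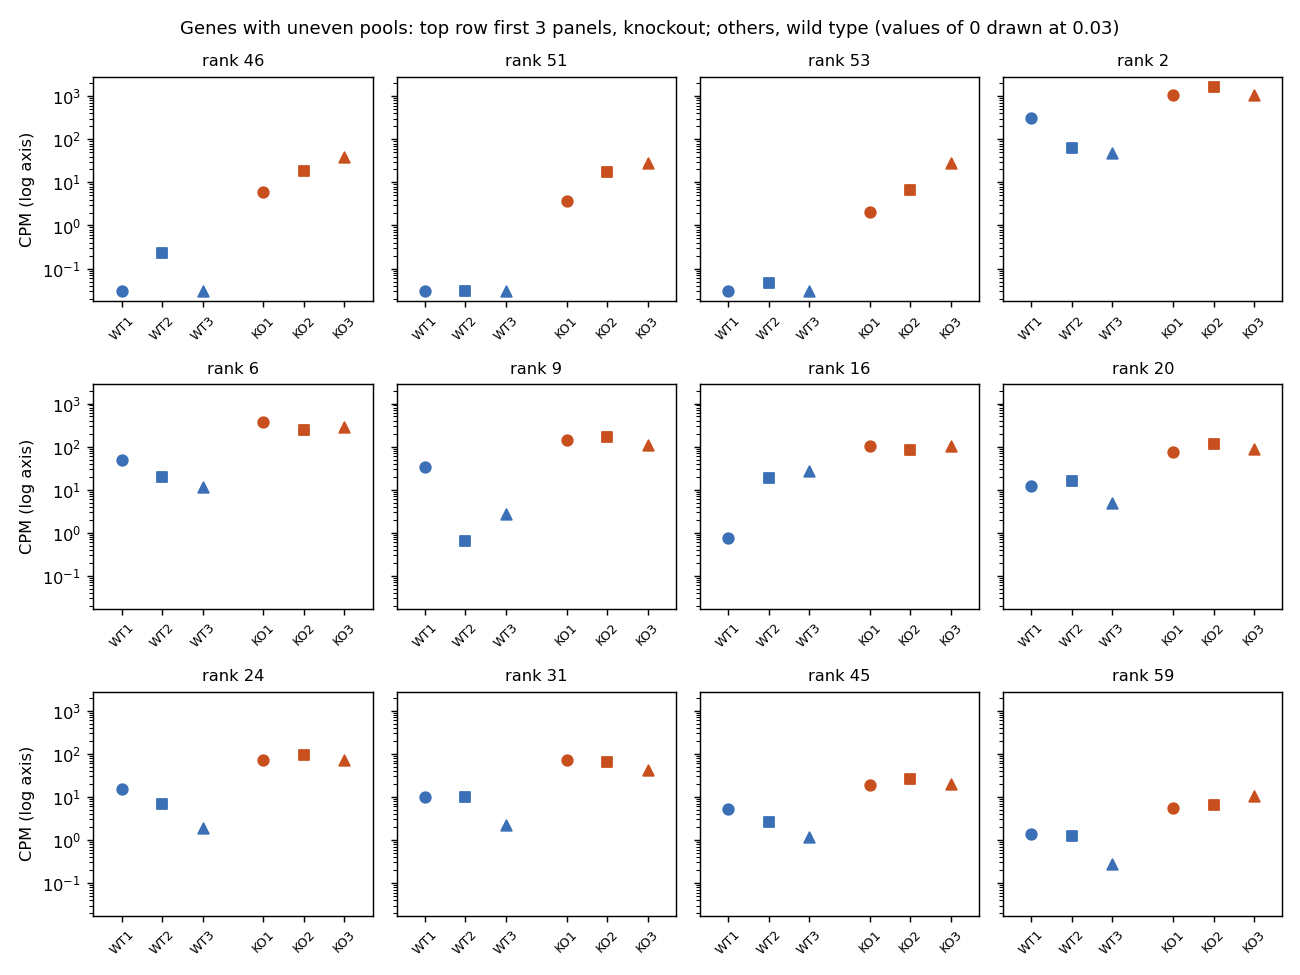
CPM (log axis, values of 0 drawn at 0.03) of 2 kinds of genes in wild type (WT, blue) and knockout (KO, orange) replicates 1 to 3. The first kind is the 3 genes whose knockout pools differed 3-fold or more. The second kind is the 9 genes whose wild type pools did so, among those with at least 1 CPM in the highest wild type library. In the 9 panels of the second kind the knockout points lie within 1.95 times of each other and the wild type points spread, by 52.0 times for rank 9 and 35.5 times for rank 16.

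Leaving out a single library of either genotype widened the group, as the rule then sets fewer conditions. Without wild type replicate 1 the rule gave 104 genes, without replicate 2 it gave 94 and without replicate 3 it gave 79, and a smaller set of wild type libraries can only add genes to the 74. The 30 genes that entered without replicate 1 had a median level in it of 1.97 times the mean of the other 2 wild type libraries, as entry in this way requires a high level there. For the 20 genes that entered without wild type replicate 2 the same ratio for that replicate was 1.53. It was 1.20 for the 5 genes that entered without wild type replicate 3. Leaving out knockout replicates 1, 2 and 3 in turn gave 86, 81 and 86 genes, with 74, 73 and 74 of the 74 kept. A smaller set of knockout libraries eases the condition on the lowest one, so growth is largely built in here as well.

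Selection in some pools could be read against pools it had not used. The rule was applied without both libraries of 1 replicate number, and the ratio of knockout to wild type was then taken from those 2 libraries. Without number 1 it selected 112 genes, of which 84 had a ratio of at least 3 in the libraries left out, beside 0.946% of all genes with at least 2 CPM in the knockout libraries used. Without number 2 it was 83 of 101 genes, 82.2%, beside 1.19%. Without number 3 it was 86 of 93 genes, 92.5%, beside 1.46%. Most of the genes selected in this way were thus at least 3-fold higher in the left-out pools as well. Of the genes selected without numbers 1, 2 and 3, however, 74, 73 and 74 were among the 74 genes. Their ratio in the left-out libraries is at least 3 by choice, so these shares give no separate support for the 74 genes.

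The ratio in the left-out libraries was in 2 cases somewhat smaller than in the libraries used. Its median was 4.80 for number 1, 5.24 for number 2 and 6.66 for number 3, beside 5.98, 6.11 and 6.25 in the libraries used for selection. A ratio below 1 was found for 1 gene in number 1, 2 genes in number 2 and 0 genes in number 3. Most of the selected genes were among the 74 and had a left-out ratio of at least 3 by choice. These medians are thus partly fixed by that choice and give no separate support. The further genes were not summarised apart. With 1 library of each genotype left out there is no test of these ratios.

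**Figure D5:**
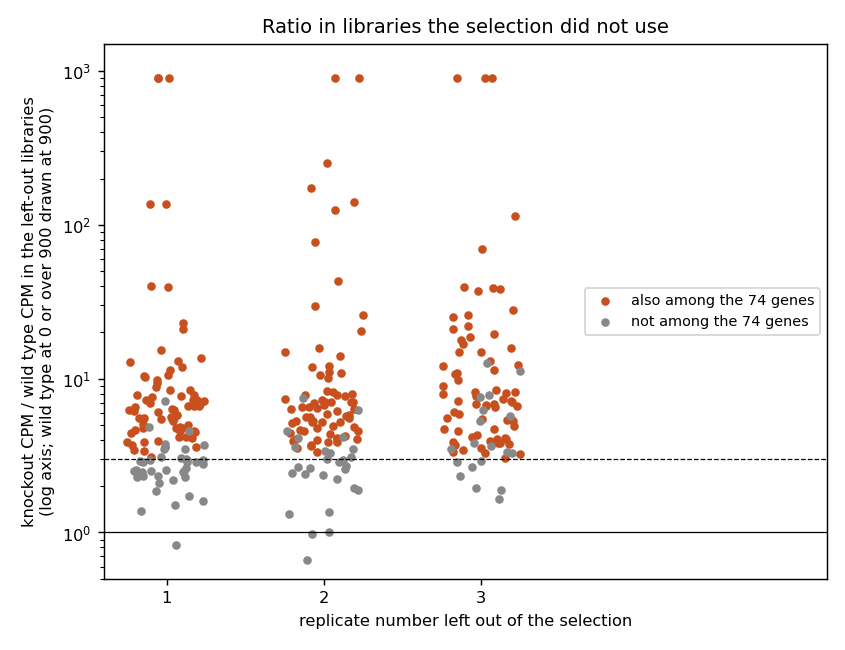
Ratio of knockout to wild type CPM in the 2 libraries left out of the selection (log axis, ratios over 900 or with wild type at 0 drawn at 900) for each gene selected without replicate number 1, 2 or 3. Orange points are among the 74 genes and so lie above the dashed line at 3 by choice, grey points are the further genes, and 3 of all points lie below the line at 1.

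The rule did not use the difference between replicate numbers, but it read the same 6 libraries. Its condition falls on the lowest knockout and the highest wild type library, and it sets no fixed limit on the spread inside a genotype. Counts of the 74 genes in that contrast are therefore a description. Replicate number 2 was compared with numbers 1 and 3 over both genotypes, and 2.29% of the 18011 genes tested differed (edgeR quasi-likelihood test with genotype as a term, adjusted p under 0.05). Of the 74 genes 1 differed, which is 1.35%. This was rank 19, higher in number 2 by 0.64 on the log2 scale (standard error 0.10, edgeR adjusted p = 0.0148). It had 9.96, 17.7 and 11.8 CPM in wild type and 71.4, 115 and 94.7 CPM in the knockout, so that replicate 2 was highest in both genotypes. The call was lost without wild type replicate 2 (edgeR adjusted p = 0.232) and without wild type replicate 3 (0.0767). At an unadjusted p under 0.05 there were 11 of the 74 genes, 14.9%, beside 20.8% of all genes tested.

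The count for number 2 was not stable. Without wild type replicate 1 it was 6 of the 74 genes, 8.11%, beside 414 or 2.29% of all genes tested. Without knockout replicate 1 it was 5, or 6.76% beside 4.63% of all, and without knockout replicate 3 it was 4, or 5.41% beside 3.45% of all. Without wild type replicate 3 it was 0 of the 74 and 0 of all genes by edgeR, with 18.9% of the 74 and 19.7% of all at an unadjusted p under 0.05. DESeq2 on all 6 libraries gave 1 of the 74, or 1.35%, beside 484 or 2.69% of all genes tested. It left 12 of the 74 and 2794 of all 18011 genes without an adjusted p. The log2 difference of number 2 was above 0 for 50 of the 74 genes, 67.6%, beside 50.8% of all genes tested.

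Deviations of same-numbered libraries from their genotype means were compared as well. Over the 18011 tested genes they correlated with Pearson's r of 0.36, 0.43 and 0.35 for numbers 1, 2 and 3. Over the 74 genes r was 0.09, -0.18 and 0.09. These are correlations across genes of the same 6 libraries, and genes are not independent replicates.

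The border of the group was gradual. Just inside it, the lowest knockout library was 3.03, 3.03, 3.07, 3.07 and 3.07 times the highest wild type library. Just outside it the ratios were 2.99, 2.98, 2.97, 2.94 and 2.92. By level, the lowest knockout means inside were 2.21, 3.12 and 3.19 CPM and the highest outside were 1.998, 1.78 and 1.52 CPM.

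Another 88 genes with at least 2 CPM in the knockout had means 3-fold apart and did not meet the rule, because single libraries came closer than that. Their median fold was 3.60, and 9 of the 88 had a fold of 5 or more, beside 57 of the 74. In 2 of the 88 the groups overlapped. The largest fold among them, 86.6, came from a gene with 0.0451, 1.21 and 0.0541 CPM in wild type and 95.9, 3.25 and 14.03 CPM in the knockout, which was uneven in both genotypes.

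The mirrored rule, with wild type and knockout exchanged, gave 288 genes. Scaling on column sums placed the median gene at -0.14 on the log2 scale, and TMM and RLE factors placed it at 0.01 and 0.03. With these factors the rule gave 92 and 97 raised genes, and the mirrored rule gave 228 and 226. Both sets of factors raise every knockout to wild type ratio, so none of the 74 could be lost. Fewer raised than lowered genes were thus found at this size under all 3 scalings. No test of that difference was made.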

How the data were processed

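RNA-seq libraries of 6 pools of stage 40 medaka embryos were used, prepared with TruSeq reagents from 500 ng of total RNA per the labels' protocols. The deposited table holds raw counts per gene ID. The aligner was STAR, per the submitters' processing notes, which name a mouse build although all IDs are medaka IDs. Those sources do not state the counting tool, annotation release, strand use or handling of multi-mapped reads, so genes that share reads with a paralog could not be marked. Columns were matched to samples by library code, and 0 columns of other samples were present.

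The members and the analyses were chosen with earlier results of these data known. CPM used column sums (pandas 2.3.3). Fits across all genes used edgeR 4.0.16 in R 4.3.3, with filterByExpr, TMM factors and the robust quasi-likelihood test, and Benjamini-Hochberg adjustment at 0.05. The procedure was run on simulated counts with a small set of changed genes. For the knockout contrast these had no effect shared by same-numbered libraries. The simulated setting thus differs from these data, and the run does not give the error rate here. Standard errors were derived from the log2 fold change and F. The 2 genes printed by ID have the highest knockout level and, as that gene also leads in wild type, the next highest wild type level, and others are given by rank, chosen after their values were seen. Alternatives were other scalings, thresholds, thinning to the lowest total, no filter, DESeq2 1.42.0, the replicate number as a block and each library left out. Libraries of a group differed by more than sampling noise, with a chi-square per degree of freedom of at least 16.9. The titles give both genotypes the same replicate numbers, and deviations of same-numbered libraries correlated at 0.35 to 0.43 over all tested genes. Libraries of the same number were therefore paired in the ratios, in the left-out selections and in the contrast of number 2. The knockout fit in the report has no replicate term, so its calls and standard errors ignore that pairing. The fit with the block is an alternative. Exact intervals cover counting error only, and PCR copies were not marked.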

Additional observations from a re-analysis of the deposited data

How the results depend on the processing

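The number of genes, 74, was 178 at a fold of 2, 44 at a fold of 4 and 162 when only the means had to differ 3-fold, by construction of the thresholds. Under the other scalings, level minimums and thinning it was 67 to 97, and 79 to 104 with 1 library left out. The median fold of 6.63 was 7.34 with TMM and 7.43 with RLE factors, which shift all genes, and 6.29 to 6.97 with 1 library left out. The median ratio of knockout pools, 1.36, was 1.41 with TMM and 1.43 with RLE, and 1.21 to 1.24 with 1 knockout library left out, since 2 libraries span less than 3. Genes with 3 wild type counts or fewer numbered 2 to 4 with 1 library left out, the 4 without wild type replicate 1. Over all genes 2857 were called higher and 3366 lower by edgeR. With the replicate number as a block these were 4247 and 4473, and 70 of the 74 were called instead of 72. Over all settings 7 of the 74 genes lacked a call in 1 setting or more, namely ranks 2, 9, 16, 24, 46, 51 and 53, and the other 67 were called in each. The genes were chosen on this same contrast in these libraries, so a kept call follows largely from the choice and is no separate support. With 1 library left out the genes called higher were 1914 to 2660 and those lower 2486 to 3194, and 67 to 73 of the 74. Genes differing in replicate number 2, 413 in all, were 0 to 840 with 1 library left out, and 0 to 6 of the 74, with 56 in all without wild type replicate 2, 0 without wild type replicate 3, 840 without knockout replicate 1 and 627 without knockout replicate 3. The cause was not tested.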

Other observations

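In blocks of 500 serial numbers of the table's IDs, the 74 genes fell in 35 of 44 blocks, with a mean of 1.68 per block, and the fullest block held 7 of its 483 genes. The 4 joined blocks that start with it held 18 of the 74 genes, 24.3%. They held 9.51% of all genes and 12.5% of the 288 genes of the mirrored rule. The stretch was picked from where the 74 genes were most frequent, so its higher share follows at least in part from that choice. The share of all genes also counts genes too low for the rule. Between neighbours in serial order the 74 genes had a median gap of 216 numbers, and 8 of these gaps were 25 or less. Among them, the serial numbers of 2 of the 3 genes with the most uneven knockout pools, ranks 46 and 51, were 13 apart. Next before these in serial order of the 74 genes came rank 71, with 2.52, 5.81 and 2.06 CPM in knockout replicates 1 to 3. Its pools thus had another order, with replicate 2 highest. Gaps were not counted for other sets of genes, so they cannot show whether the 74 lie closer than others. What serial order reflects is not stated by any source used here, no positions were used, and evenness over the blocks was not tested.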
